A study of Mus musculus with 4 samples.

Results

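Nuclear hormone receptors and the coregulators they recruit were followed in sorted bulge stem cells, the resting stem cells of the hair follicle. The set was a list of 44 gene symbols, and a gene was measured where at least 1 row of the table named it alone. That held for 42 genes on 43 rows, out of 19935 genes that could be named, with 2 rows for the insulin receptor gene Insr. No row named Nr1h2 or Ncor1 alone, and both were not analysed here. The list held 34 nuclear receptors with a row, 5 coregulators and 3 receptors of the cell surface (Oxtr, Insr and Igf1r), which bind peptide hormones and are not nuclear receptors.

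Nuclear receptors are transcription factors that small lipid-soluble ligands switch on or off. Steroid receptors bind DNA as pairs of the same protein, while the vitamin D, thyroid hormone, retinoic acid, PPAR and LXR receptors mostly pair with a retinoid X receptor. Coactivators such as the p160 family and the Mediator complex link a receptor to the transcription machinery, and corepressors do the reverse. In skin, the vitamin D receptor is needed for hair follicles to cycle, and glucocorticoids, estrogen and retinoids all act on the timing of hair growth.

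The cells came from skin of male CD-1 mice at postnatal day 56, when their follicles rested in the second telogen, and were sorted by surface CD34 together with alpha6 integrin. For 3 days before, the animals had been injected in the peritoneum with CSA at 100 mg/kg or with its vehicle; CSA is not written out in the labels and in this field means cyclosporine A, a drug that inhibits calcineurin. Each group had 2 samples that the series text calls biological replicates, each on a one-colour array, and no genotype beyond the strain is given. How many animals were pooled for a sample is not stated, so p-values measure the spread between these samples.

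Each value is a distance from a baseline that the authors set for each row, on a log scale taken as log2. The baseline is unknown, so a value of 0 is not absence and levels of different genes cannot be ranked by abundance. For 7 of 42 members and 18.3% of all genes, 2 arrays lay at equal distances on opposite sides of it, to within 1e-04. Whether values near 0 come from the centring was not tested. In a bulk sample, fewer cells of a type and less RNA per cell cannot be told apart. Array medians over all rows lay between -0.02 and 0.06. Of 10 bulge markers, 9 stood above the baseline on all 4 arrays, against 4.1% of all genes, with Cd34 at 1.75 and 3.60 with CSA against 4.05 and 4.25 with vehicle. The exception was Itga6, the other gene of the sort, at -0.70 and -0.53 with CSA and 0.08 on vehicle replicate 2, and lowest on vehicle replicate 1. Both arrays numbered replicate 1 stood apart. On CSA replicate 1 the bulge markers had their lowest median, 0.38 against 0.97 to 1.26 on the other arrays. Vehicle replicate 1 had the highest median of all 4 arrays for 7 of 7 marker lists of other skin cells, from differentiated epidermis (0.47, against -0.40 on the other vehicle array) to fibroblasts (0.08, against -0.04). It was also the highest array for 43.2% of all genes, and its median over all rows was 0.06. The medians of fibroblast (0.08) and melanocyte (0.09) markers on it lay close to that value. Across all rows the arrays most alike were CSA replicate 2 and vehicle replicate 2 (Pearson r 0.516), while CSA replicate 1 and vehicle replicate 1 had an r between 0.02 and 0.168 with every array.

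The promoter stretches of 4 members show the DNA of the genes on which the results below turn most. Vdr stood farthest above the baseline, Med1 was the member whose groups lay 1.5-fold apart without overlap, and Oxtr and Esr2 had the smallest p-values. Each stretch is the 250 bases before the gene's start, read 5′ to 3′ on the minus strand of GRCm38.p6 as RefSeq gives it: chr15:97908297-97908546 for Vdr, chr11:98192907-98193156 for Med1, chr6:112489826-112490075 for Oxtr and chr12:76177260-76177509 for Esr2. Capitals mark any of 4 short motifs on either strand: AGGTCA, the half-site of many nuclear receptors, AGAACA, that of steroid receptors, TGGAAA, which holds the NFAT core, and the GC box GGGCGG. The 4 genes were chosen after their values were seen, and the GC box was added to the search after the Vdr and Med1 stretches showed none of the other 3 motifs.
Vdr: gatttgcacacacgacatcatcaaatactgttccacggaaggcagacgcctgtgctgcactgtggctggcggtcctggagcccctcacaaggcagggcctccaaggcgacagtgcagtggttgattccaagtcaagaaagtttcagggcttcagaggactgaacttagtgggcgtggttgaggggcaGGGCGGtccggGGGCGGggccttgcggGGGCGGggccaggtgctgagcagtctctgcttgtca
Med1: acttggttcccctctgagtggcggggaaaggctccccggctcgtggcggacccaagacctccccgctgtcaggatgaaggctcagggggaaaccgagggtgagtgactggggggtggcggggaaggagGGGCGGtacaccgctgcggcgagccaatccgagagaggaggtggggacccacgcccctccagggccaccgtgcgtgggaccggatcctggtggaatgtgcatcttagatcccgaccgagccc
Oxtr: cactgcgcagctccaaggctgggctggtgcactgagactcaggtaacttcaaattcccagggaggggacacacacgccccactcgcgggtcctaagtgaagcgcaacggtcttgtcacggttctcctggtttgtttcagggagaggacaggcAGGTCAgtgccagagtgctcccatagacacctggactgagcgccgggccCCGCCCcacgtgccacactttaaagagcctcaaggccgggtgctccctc
Esr2: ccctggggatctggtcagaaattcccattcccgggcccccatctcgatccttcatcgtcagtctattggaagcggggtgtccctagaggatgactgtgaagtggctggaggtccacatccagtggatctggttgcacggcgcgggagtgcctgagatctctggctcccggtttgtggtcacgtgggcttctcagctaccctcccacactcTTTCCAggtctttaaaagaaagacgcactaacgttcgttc
The Vdr stretch held 3 GC boxes and the Med1 stretch 1. Oxtr carried a receptor half-site and a GC box, and Esr2 the motif TGGAAA on the opposite strand. Over windows of 300 bases (250 before to 50 after the start), 37 of the 42 measured members had a window in the table. The receptor half-site lay in 12 of their 59 windows, against 16.3% of all 32851 windows, and the steroid half-site in 6, against 19.0%. The motif TGGAAA lay in 14 of the 59, against 21.4%, and the GC box in 28, against 35.7%. The shorter NFAT core inside TGGAAA was neither marked nor counted on its own. A match in such a window is a run of letters and not a measured binding site.

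Against the baseline, 4 receptor genes stood above 0 on all 4 arrays, where 4.1% of all genes did, and 2 stood below 0 on all 4, where 3.35% did. The genes above were Vdr, Nr3c1, Nr3c2 and Thra, and those below were Ppara and Pparg. Vdr was above by only 0.04 on vehicle replicate 1, and it was no longer in this group, at -0.02 and -0.009 there, when arrays were centred on their medians or quantile normalized. Averaged over the 4 arrays, Vdr (0.73) lay at percentile 98.5 of all genes and Nr3c1 (0.62) at percentile 98. Nr3c2 (0.32), Ppard (0.27) and Thra (0.26) lay between percentiles 92.5 and 94.6. At the other end, Ppara (-0.44) lay at percentile 3.1, Nr2c2 (-0.34) at 4.9, Pparg (-0.33) at 5.3 and Ncoa3 (-0.32) at 5.7. For Nr2c2 and Ncoa3 vehicle replicate 1 alone was far below the baseline.

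**Figure D1:**
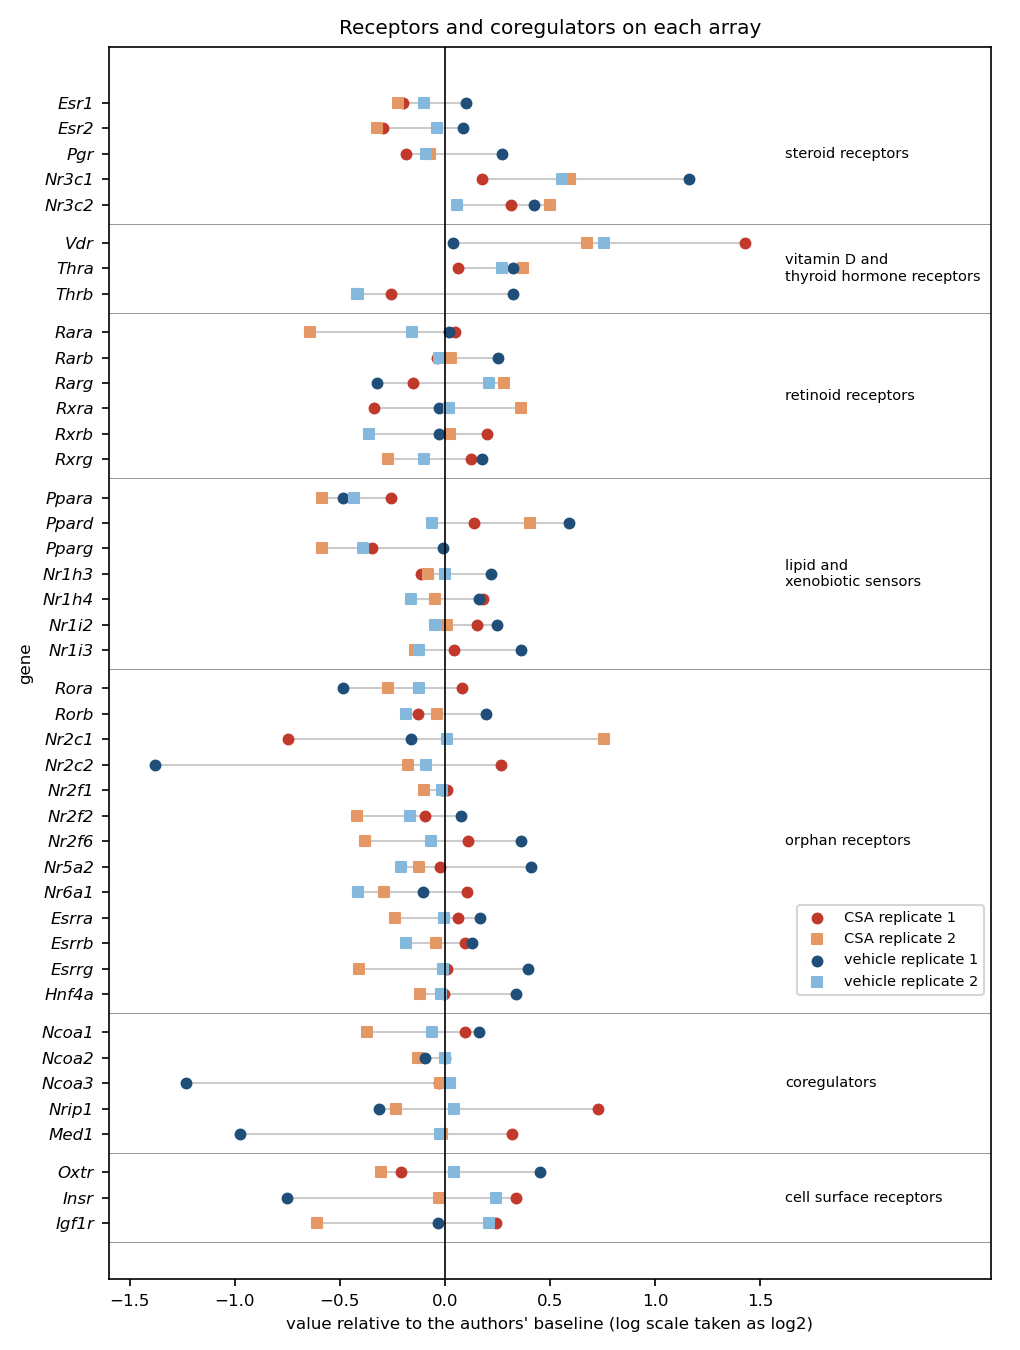
Value of each of the 42 measured genes on each of the 4 arrays, as distance from the authors' baseline (horizontal axis, log scale taken as log2), with genes grouped by role; a grey line joins the lowest and the highest array. Nr3c1 lies above 0 on all 4 arrays, as does Vdr, by only 0.04 on vehicle replicate 1 and below 0 there on centred arrays. Vehicle replicate 1 is the highest or the lowest array for 30 of the 42 genes.

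Between CSA and vehicle, no difference among the 42 genes passed the threshold. limma called 0 of 42 members and 0 of 19935 genes at an adjusted p under 0.05 (0% of all genes), and the smallest adjusted p was 0.999 for members and for all genes alike. At an unadjusted p under 0.05 limma gave 0 of 42 members, where it gave 2.83% of all genes, and the test without moderation gave 1, Esr2. Differences were positive, that is higher in CSA, for 17 members and negative for 25, with a median of -0.08. Over all genes 41.1% were positive and the median was -0.04. Groups did not overlap for 6 members, of which 2 were higher and 4 lower in CSA, where 26.3% of all genes did not overlap (10.9% higher and 15.4% lower). The 6 were Rxrb and Med1, higher in CSA, and Esr1, Esr2, Nr1h3 and Oxtr, lower in CSA. Of these Med1 alone had group means at least 1.5-fold apart (0.585 on the log2 scale), 1 of 42, where 5.9% of all genes did. The members' shares at an unadjusted p under 0.05, without overlap and 1.5-fold apart all lay below those of all genes with the 4 arrays in use. Without CSA replicate 2 or vehicle replicate 2, the members' share 1.5-fold apart without overlap lay above that of all genes. With all arrays, the shares at an unadjusted limma p under 0.05 and 1.5-fold apart rest on 0 and 1 of 42 members. These counts are too small to set the members apart from all genes.

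**Figure D2:**
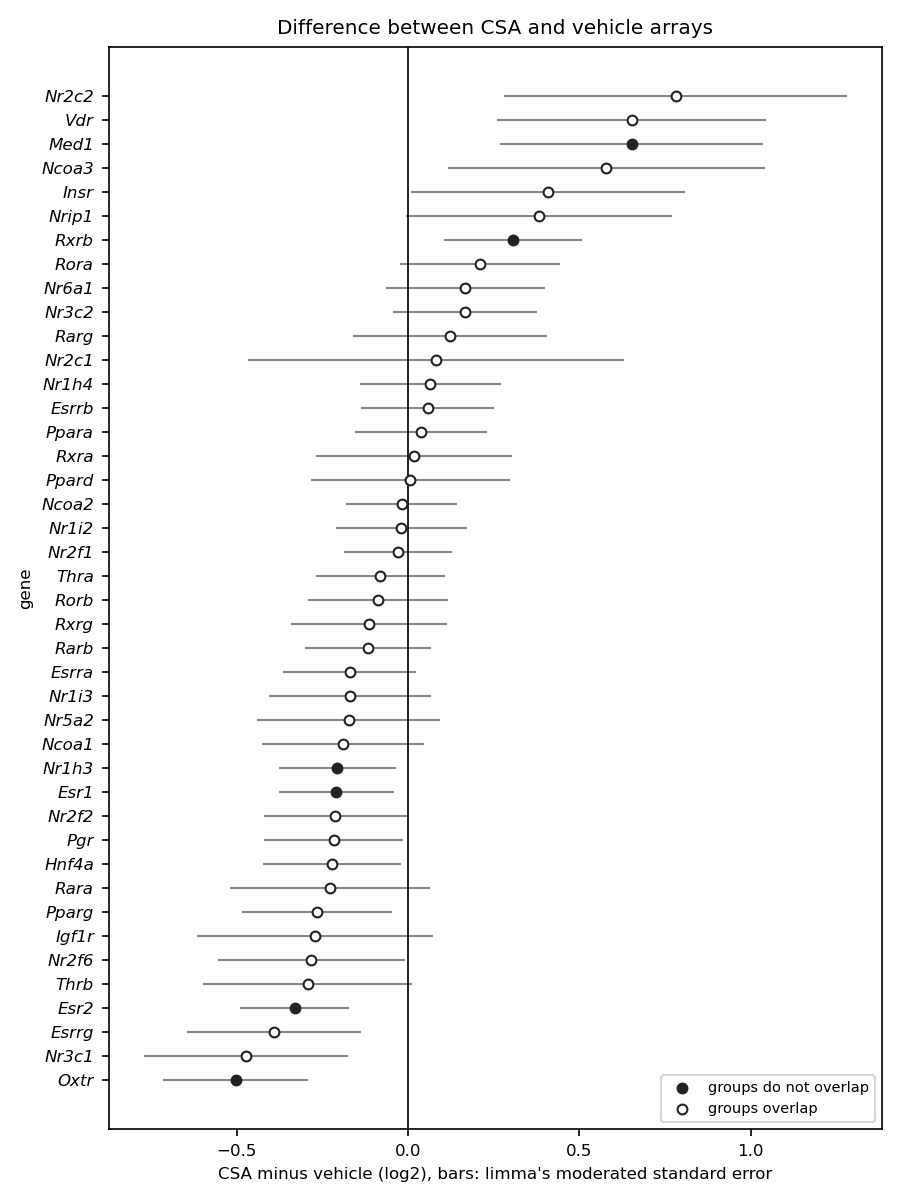
Difference between the means of the 2 CSA and the 2 vehicle arrays for each of the 42 genes (horizontal axis, log2), sorted by size; bars are limma's moderated standard error, and filled points mark genes whose groups do not overlap. Differences run from -0.50 for Oxtr to 0.78 for Nr2c2, and 6 points are filled.

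Steroid receptors were lower in CSA for 4 of 5 genes and higher for 1, where 41.1% of all genes were higher. Their median difference of -0.22 was -0.11 without vehicle replicate 1. That array was the highest for 4 of the 5, where it was so for 43.2% of all genes. Esr1, which encodes estrogen receptor alpha, read -0.20 and -0.22 with CSA against 0.10 and -0.10 with vehicle. Both CSA arrays lay below both vehicle arrays, and the difference was -0.21 ± 0.17 (here and below, ± gives the moderated standard error of limma, with 2 arrays in each group). Esr2, the gene of estrogen receptor beta, read -0.29 and -0.32 with CSA against 0.09 and -0.04 with vehicle. The groups again did not overlap, and the CSA arrays lay within 0.03 of each other. The difference of -0.33 ± 0.16 had an unadjusted limma p of 0.104 and an adjusted p of 0.999. Pgr, the progesterone receptor gene and a target of estrogen receptors in many tissues, read -0.18 and -0.07 with CSA against 0.27 and -0.09 with vehicle, so that the groups overlapped. Its difference of -0.22 ± 0.20 was -0.04 without vehicle replicate 1.

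The corticosteroid receptor genes stood above the baseline throughout. Nr3c1, which encodes the glucocorticoid receptor, read 0.18 and 0.60 with CSA against 1.16 and 0.56 with vehicle. CSA replicate 1 was the lowest and vehicle replicate 1 the highest, with the other arrays of both groups within 0.04 of each other. The difference was -0.47 ± 0.30 (unadjusted limma p of 0.186, adjusted p of 0.999) and -0.17 without vehicle replicate 1. Nr3c2, the gene of the mineralocorticoid receptor, which binds glucocorticoids as well, read 0.32 and 0.50 with CSA against 0.43 and 0.06 with vehicle. The groups overlapped, and the difference was 0.17 ± 0.21.

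Genes that the glucocorticoid receptor is known to induce parted the CSA arrays from each other. Of 15 such genes, 14 had their highest value on CSA replicate 1, where 21.1% of all genes had theirs. Nr3c1 was lowest on this array, as were 22.7% of all genes, and a link of its level to the targets was not tested. The median of the bulge markers was also lowest on CSA replicate 1, at 0.38 against 0.97 to 1.26 on the other arrays. Lgr5, for example, stood at 1.22 against 2.70 to 3.70, while Itga6 and Tcf7l1 were lowest on vehicle replicate 1. The part of these marker levels in the targets' values was not tested. The targets' median was 1.40 on CSA replicate 1, -0.27 on CSA replicate 2 and -0.07 on both vehicle arrays. Fkbp5, a chaperone of the receptor that the receptor also induces, read 3.22 and -0.50 with CSA against -0.45 and -0.48 with vehicle. Klf9, a transcription factor of the same target set, read 2.33 and -0.58 with CSA against -0.02 and -0.06 with vehicle; both genes were chosen after their values were seen. Cebpd, a transcription factor gene, read 2.77 and 0.39 with CSA against -0.07 and 0.14 with vehicle, a difference of 1.54 ± 0.84 that came to 0.35 when CSA replicate 1 was left out and to 2.73 when CSA replicate 2 was. Nfkbia, the inhibitor of NF-kappaB, read 0.35 and 0.01 with CSA against -1.09 and -0.25 with vehicle (0.85 ± 0.35, and 0.43 without vehicle replicate 1). Over the list 12 genes were higher and 3 lower in CSA, where 41.1% of all genes were higher, with a median difference of 0.82. Without CSA replicate 1, 4 of the 15 were higher and the median was -0.24. limma called 0 of the 15 at an adjusted p under 0.05 and also 0 at an unadjusted p under 0.05.

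**Figure D3:**
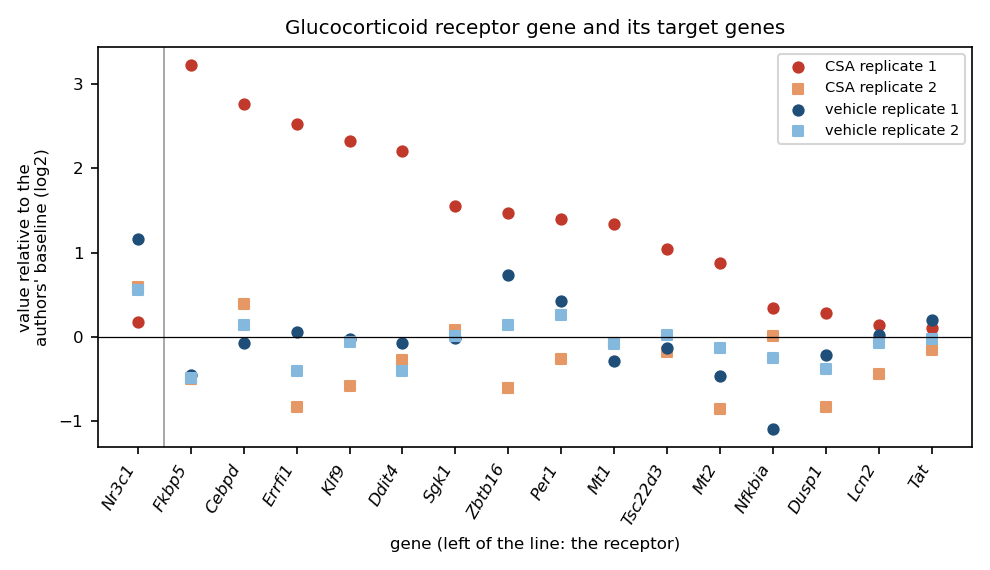
Values of Nr3c1, left of the vertical line, and of 15 target genes of the glucocorticoid receptor on each of the 4 arrays (vertical axis, distance from the authors' baseline, log2), with targets ordered by their value on CSA replicate 1. CSA replicate 1 is lowest for Nr3c1 and highest for 14 of the 15 targets, up to 3.22 for Fkbp5.

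Vdr, the vitamin D receptor gene, had the largest array value of all members. It read 1.43 and 0.68 with CSA against 0.04 and 0.76 with vehicle. The arrays numbered replicate 1 took the extremes, those numbered replicate 2 lay close together, and the groups overlapped. The difference of 0.65 ± 0.39 (unadjusted limma p of 0.17, adjusted p of 0.999) came to 0.29 when vehicle replicate 1 was left out and to 0.28 when CSA replicate 1 was. Thra, the gene of thyroid hormone receptor alpha, read 0.06 and 0.37 with CSA against 0.32 and 0.27 with vehicle, a difference of -0.08 ± 0.19. Thrb, of the beta receptor, read -0.26 and -0.42 with CSA against 0.33 and -0.41 with vehicle. Only vehicle replicate 1 stood above the baseline, and the difference of -0.29 ± 0.31 was 0.08 without it. Among 12 measured genes of vitamin D and thyroid hormone metabolism and their targets, 7 were higher and 5 lower (median 0.04), and limma gave 0 at an unadjusted or adjusted p under 0.05.

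Receptors of retinoids, which derive from vitamin A, were split, 3 higher and 3 lower in CSA. Rara, the gene of retinoic acid receptor alpha, read 0.05 and -0.64 with CSA against 0.02 and -0.15 with vehicle, with CSA replicate 2 alone far below. Its difference of -0.23 ± 0.29 was 0.12 without that array. Rarg, the receptor gene known for its level in epidermis, read -0.15 and 0.28 with CSA against -0.32 and 0.21 with vehicle. Here both arrays numbered replicate 1 lay below the baseline and both numbered replicate 2 above it, and the groups differed by 0.12 ± 0.28. Rxra, the gene of the common pairing partner, read -0.34 and 0.36 with CSA against -0.03 and 0.02 with vehicle. CSA replicate 1 lay below and CSA replicate 2 above both vehicle arrays, and the difference of 0.02 ± 0.29 was -0.002 after quantile normalization. Rxrb, a further partner gene, read 0.20 and 0.03 with CSA against -0.03 and -0.36 with vehicle. The groups did not overlap but lay only 0.05 apart, and the difference was 0.31 ± 0.20 (unadjusted limma p of 0.202).

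Enzymes that make and destroy retinoic acid were listed beside the receptors. Of 18 measured genes of retinoid metabolism and retinoic acid targets, 8 were higher and 10 lower in CSA. limma gave 1 at an unadjusted p under 0.05, where it gave 2.83% of all genes, and 0 after adjustment. That gene was Rdh10, which oxidizes retinol in the first step towards retinoic acid. It read 0.88 and 1.34 with CSA against 0.13 and -0.96 with vehicle, a difference of 1.53 ± 0.44 (unadjusted limma p of 0.0242, adjusted p of 0.999). Without moderation its unadjusted p was 0.123, and the difference ran from 0.98 without vehicle replicate 2 to 2.07 without vehicle replicate 1. Cyp26b1, which breaks retinoic acid down, read 0.04 and 0.14 with CSA against 0.46 and 0.51 with vehicle (-0.40 ± 0.16). For both genes the groups did not overlap, and the arrays of each group lay closer together for Cyp26b1 than for Rdh10. Lrat and Aldh1a2, next by the size of the moderated t, were higher in CSA without overlap. Aldh1a3, chosen after its values were seen, was lower without overlap. Retinoic acid itself was not measured.

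Sensors of lipids and foreign compounds had 3 of 7 genes higher and 4 lower in CSA, with all differences between -0.27 and 0.06, the narrowest range of the 7 roles. Ppara, of the receptor that drives fatty acid oxidation, read -0.25 and -0.58 with CSA against -0.48 and -0.43 with vehicle. Pparg, known for its role in fat cells and sebaceous glands, read -0.34 and -0.58 with CSA against -0.01 and -0.39 with vehicle. Both genes stood below the baseline on every array, and their differences were 0.04 ± 0.19 and -0.27 ± 0.22. Ppard, of the PPAR most abundant in keratinocytes, read 0.14 and 0.41 with CSA against 0.59 and -0.06 with vehicle. The vehicle arrays bracketed both CSA arrays, and the difference was 0.01 ± 0.29. Nr1h3, the gene of LXR alpha, an oxysterol receptor, read -0.11 and -0.08 with CSA against 0.22 and 0.001 with vehicle, without overlap (-0.21 ± 0.17). The bile acid receptor gene Nr1h4 and the xenobiotic receptor genes Nr1i2 and Nr1i3 ran from -0.16 to 0.36 over all arrays, with overlap in each. Of 12 measured PPAR targets 5 were higher and 7 lower, and of 12 LXR targets 7 were higher and 5 lower. limma gave 0 of either list at an unadjusted p under 0.05 or after adjustment.

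Orphan receptors, whose natural ligand is unknown or disputed, made up 13 members, 5 higher and 8 lower in CSA. Nr2c2, which encodes the testicular receptor TR4, had the largest difference of all members. It read 0.27 and -0.18 with CSA against -1.38 and -0.09 with vehicle, so that 3 arrays lay near the baseline and vehicle replicate 1 far below. The difference of 0.78 ± 0.50 (unadjusted limma p of 0.191, adjusted p of 0.999) was 0.13 without that array. Its close relative Nr2c1 read -0.75 and 0.76 with CSA against -0.16 and 0.01 with vehicle. The CSA arrays lay at opposite ends, which gave the largest standard deviation within groups among the members (0.76) and a difference of 0.08 ± 0.55. Rora, a receptor that drives clock genes, read 0.08 and -0.27 with CSA against -0.49 and -0.12 with vehicle (0.21 ± 0.23). Nr2f2, which encodes COUP-TFII, read -0.09 and -0.42 with CSA against 0.08 and -0.16 with vehicle (-0.21 ± 0.21). The groups overlapped for both. The estrogen-related receptor genes Esrra, Esrrb and Esrrg each had their highest value on vehicle replicate 1, at 0.17, 0.13 and 0.40. So did Hnf4a at 0.34 and Nr5a2 at 0.41, genes best known from liver and gut. Vehicle replicate 1 was the highest array for 8 of the 13 orphan members, where it was so for 43.2% of all genes. Of the remaining orphan members, Nr2f1 lay between -0.10 and 0.01 on all arrays, the narrowest range of any member, and Nr2f6, Nr6a1 and Rorb overlapped between the groups.

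Among coregulators, 3 of 5 had their lowest value on vehicle replicate 1, where 21.2% of all genes had theirs. Ncoa3, a p160 coactivator, read -0.03 and -0.02 with CSA against -1.23 and 0.02 with vehicle. All arrays but vehicle replicate 1 lay within 0.03 of the baseline, and the difference of 0.58 ± 0.46 was -0.05 without it. Med1, the Mediator subunit that nuclear receptors contact, read 0.32 and -0.01 with CSA against -0.97 and -0.02 with vehicle. The groups did not overlap, but CSA replicate 2 and vehicle replicate 2 lay only 0.01 apart. The difference was 0.65 ± 0.38 (unadjusted limma p of 0.161, adjusted p of 0.999) with all arrays and 0.18 without vehicle replicate 1. Nrip1, a corepressor that binds receptors in the presence of ligand, read 0.73 and -0.23 with CSA against -0.31 and 0.05 with vehicle. CSA replicate 1 was alone high, and the difference of 0.38 ± 0.39 was -0.10 without it. The other p160 genes Ncoa1 and Ncoa2 differed by -0.19 ± 0.24 and -0.02 ± 0.16. Over the 5 coregulators the median difference was 0.38 with all arrays and -0.05 without vehicle replicate 1.

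The other subunits of Mediator, the complex that carries Med1, were set beside it. Of 28 measured, 21 were higher and 7 lower in CSA, where 41.1% of all genes were higher, with a median difference of 0.26. limma gave 3 at an unadjusted p under 0.05, where it gave 2.83% of all genes, and 0 after adjustment. Without vehicle replicate 1, on which the median of the 28 genes was -0.21, 16 were higher, the median difference was 0.09 and 0 had an unadjusted limma p under 0.05. The 3 genes with all arrays in use were Med29, Med6 and Med27, picked by these p-values in the same data. Med29 read 0.31 and 0.68 with CSA against -0.18 and -0.37 with vehicle, a difference of 0.77 ± 0.21 (unadjusted limma p of 0.0209, adjusted p of 0.999). Med6 read 0.52 and 0.03 with CSA against -0.72 and -0.46 with vehicle (0.86 ± 0.24), and Med27 read 0.23 and 0.87 with CSA against -0.61 and -0.23 with vehicle (0.97 ± 0.30). For these 3 genes both vehicle arrays were low, unlike for Med1 and Ncoa3, and the differences without vehicle replicate 1 were 0.87, 0.73 and 0.79 for Med29, Med6 and Med27. Without moderation 0 of the 28 had an unadjusted p under 0.05 (0.067, 0.0881 and 0.119 for these 3). Of 22 other coregulators 14 were higher and 8 lower (median 0.13, and -0.09 without vehicle replicate 1), and limma gave 0 at either threshold. Of 10 other nuclear receptor genes 3 were higher and 7 lower (median -0.19, and 0.01 without vehicle replicate 1), again with 0 at either threshold.

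Among receptors of the cell surface, Oxtr had the smallest p of all members. This gene encodes the oxytocin receptor, which acts in labour and milk release. It read -0.21 and -0.30 with CSA against 0.45 and 0.04 with vehicle, without overlap. The difference of -0.50 ± 0.21 had an unadjusted limma p of 0.0743 and an adjusted p of 0.999, and it was -0.30 without vehicle replicate 1. Insr, the insulin receptor gene, read 0.34 and -0.03 with CSA against -0.75 and 0.25 with vehicle on the row used, and 0.64 and -0.32 with CSA against -0.89 and 0.26 with vehicle on its other row. Both rows put vehicle replicate 1 lowest and CSA replicate 1 highest, and the difference of 0.41 ± 0.40 was -0.09 without vehicle replicate 1. Igf1r, of the receptor for insulin-like growth factor, read 0.24 and -0.61 with CSA against -0.03 and 0.21 with vehicle. CSA replicate 2 was alone far below, and the difference of -0.27 ± 0.34 was 0.15 without it.

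Genes around these receptors went both ways. Of 21 measured genes of insulin and insulin-like growth factor signalling, 9 were higher and 12 lower in CSA. limma gave 1 at an unadjusted p under 0.05, where it gave 2.83% of all genes, and 0 after adjustment. That gene was Igfbp6, which encodes a secreted binding protein of insulin-like growth factors. It stood above the baseline on every array, at 1.82 and 1.76 with CSA against 0.69 and 1.07 with vehicle (0.91 ± 0.20, unadjusted limma p of 0.0102, adjusted p of 0.999). With a trend in eBayes its unadjusted p was 0.193, so that this gene no longer passed. Igfbp3, of the same family, read -2.18 and -0.60 with CSA against 0.02 and -0.02 with vehicle (-1.39 ± 0.57, with -0.60 and -2.18 when CSA replicate 1 or 2 was left out). Akt1, a kinase downstream of both receptors, read 0.06 and 0.09 with CSA against -0.33 and -0.25 with vehicle (0.36 ± 0.16). The groups did not overlap for these 3 genes. Of 12 targets of estrogen and progesterone receptors 3 were higher and 9 lower (median -0.17, and -0.003 without vehicle replicate 1), and limma gave 0 at either threshold. Xbp1, an estrogen receptor target and transcription factor of the secretory pathway, read 0.42 and 0.41 with CSA against -0.56 and 0.02 with vehicle. Its difference of 0.69 ± 0.25 was 0.39 without vehicle replicate 1. Igfbp4, next in this list by the size of the moderated t, was lower in CSA without overlap. It read -0.12 and -0.23 with CSA against 0.87 and 0.02 with vehicle. Of 19 genes of steroid metabolism and receptor chaperones 10 were higher and 9 lower (median 0.01), with 0 at either threshold by limma.

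Vehicle replicate 1 was the highest or the lowest array for 30 of the 42 members, where it was so for 64.4% of all genes. It was highest for 22 (43.2% of all genes) and lowest for 8 (21.2%), among them Nr2c2, Med1 and Ncoa3. The members' shares lay near those of all genes. Without this array the median size of a member's difference was 0.10 in place of 0.21, 12 of 42 members changed sign, and none reached 1.5-fold in either direction. Without CSA replicate 2, 11 members changed sign, where 21.4% of all genes did. Over all genes 29.4% changed sign without vehicle replicate 1 and the median size was 0.14 in place of 0.16. When each array was left out in turn, 17 of the 42 members kept their sign in every case, where 41.6% of all genes did. Among them were Vdr, Nr3c1 and Pgr, whose groups overlapped, and Rxrb, Oxtr, Esr1 and Esr2, whose groups did not. Where groups do not overlap, leaving out an array cannot change the sign, so a kept sign adds nothing for those genes. Sign changes among members were 6 without CSA replicate 1 (18.6% of all genes) and 5 without vehicle replicate 2 (15.0%). The part of the raised markers of other skin cells on vehicle replicate 1 in these differences was not tested.

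**Figure D4:**
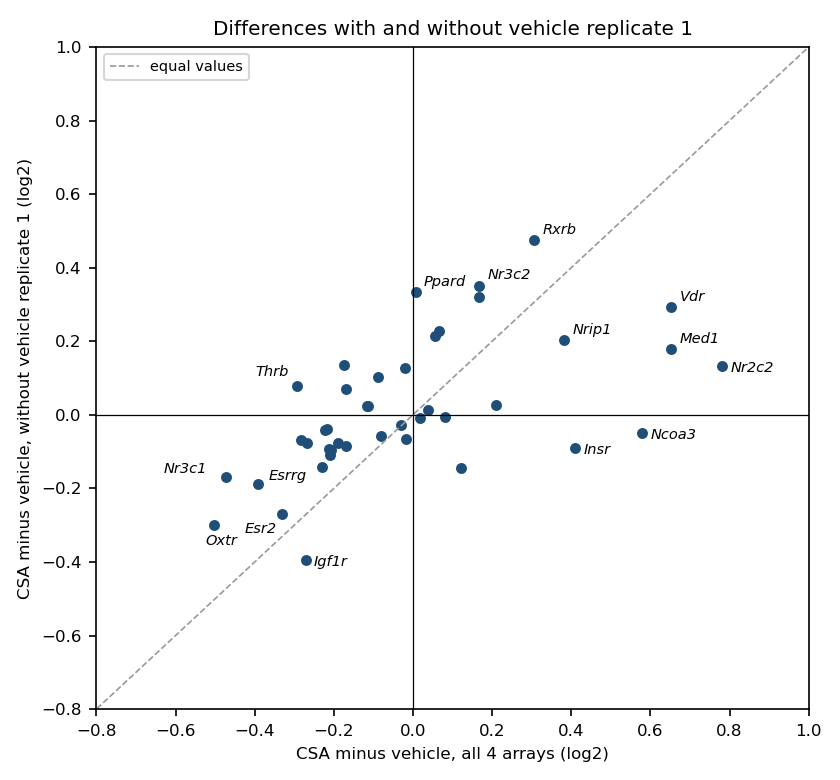
Difference between CSA and vehicle for each of the 42 members with all 4 arrays (horizontal axis, log2) and without vehicle replicate 1 (vertical axis, log2); the dashed line marks equal values and some genes are named. Ncoa3 and Insr, at 0.58 and 0.41 with all arrays, lie just below 0 without this array, and Nr2c2, Med1 and Vdr lie at 0.13, 0.18 and 0.29.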

How the data were processed

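The 4 arrays, 2 for CSA and 2 for vehicle, had been hybridised with biotinylated cDNA made from 20 ng of total RNA, per the labels' protocols. The deposited values, taken here as log2 because their log base is not named, had been centred by the authors on a baseline for each of 28815 rows. Software, background correction and normalization were not given in the sources used here; mm8 is the genome build in the submitters' processing notes. Scanner values were not used here, so signal over background is unknown, and precision is limited by the number of arrays.

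Through the annotation of the platform 21780 rows named 1 gene; rows naming several (1605) or not listed (5430) were not used. Where a gene had several rows, that with the highest mean was used. Differences were tested for 19935 genes with limma 3.58.1 in R 4.3.3 (lmFit and eBayes without a trend, no block, no filter), two-sided, with Benjamini-Hochberg adjustment and a threshold of 0.05. The script was tested on simulated data, with normal noise of the genes' own spreads and known differences in some genes. There limma called, at an adjusted p under 0.05, 0.2% of genes with a true log2 difference of 1 and 31% of those with 2. The largest observed difference of a member was 0.78, so the absence of calls does not show that members were unchanged. Alternatives were quantile normalization, centring, a trend, no moderation, the mean of a gene's rows, a filter on the mean, a replicate block and leaving out each array. All members could be named, and from each list of related genes up to 4 with the largest absolute moderated t. The members, lists and rules were chosen with earlier results of these data known, and direction follows higher values as more RNA. Promoter windows were matched by symbol to RefSeq, build GRCm38.p6.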

Additional observations from a re-analysis of the deposited data

How the results depend on the processing

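Under every alternative run, 0 genes passed limma at an adjusted p under 0.05. The count of members at an unadjusted p under 0.05, 0 as reported, was 1 after quantile normalization (Oxtr; 3.39% of all genes), 1 with no moderation (Esr2; 2.71%) and 0 to 5 when an array was left out, 5 of them (11.9%) without vehicle replicate 2 (Insr, Med1, Ncoa3, Nr2c2 and Oxtr; 7.07% of all genes). The count of members 1.5-fold apart without overlap, 1 as reported, was 0 after quantile normalization (5.58% of all genes), 0 with the filter at the 25th percentile, which Med1 did not pass (4.31%), and 0 to 9 with an array left out. These were 0 without vehicle replicate 1 (7.85% of all genes), 3 without CSA replicate 1 (11.7%), 7 without CSA replicate 2 (15.2%) and 9 without vehicle replicate 2 (16.9%). Members higher in CSA numbered 17 of 42, 11 of the 30 that passed the filter, and 13 to 20 with an array left out. The members' median difference of -0.08 was -0.208 to -0.0183 with an array left out, -0.208 being the value without vehicle replicate 2.

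Nothing in the labels pairs the replicate numbers. Deviations of arrays with the same number from their group means had a correlation of 0.236 over genes, and with the replicate block limma gave 0 members and 914 genes in place of 565 at an unadjusted p under 0.05, and 0 genes after adjustment.

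Of the 41 genes named with a difference, 4 changed sign on another scaling, Rxra (-0.002), Ppara (-0.069) and Ppard (-0.052) after quantile normalization and Ncoa2 (0.0082) with centred arrays, and 17 changed sign when an array was left out. These ran from -0.0179 to 0.351 for Nr3c2, -0.238 to 0.0742 for Thra, -0.664 to 0.0771 for Thrb, -0.57 to 0.12 for Rara, -0.14 to 0.39 for Rarg, -0.33 to 0.37 for Rxra and -0.13 to 0.20 for Ppara. They ran from -0.32 to 0.33 for Ppard, -0.67 to 0.83 for Nr2c1, -0.421 to 0.0423 for Ncoa1, -0.0822 to 0.0448 for Ncoa2, -0.0487 to 1.21 for Ncoa3 and -0.0974 to 0.863 for Nrip1. For Insr the range was -0.0901 to 0.908, for Igf1r -0.70 to 0.15, for Fkbp5 -0.03 to 3.69 and for Klf9 -0.54 to 2.37. Of the 24 that kept their sign with each array left out, 17 moved by more than 1.5 times under at least 1 of these. The cause was not tested beyond the arrays left out.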

Other observations

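Genes of insulin signalling held further cases in which CSA replicate 1 was alone high; they were chosen after their values were seen. Foxo1, a transcription factor that insulin keeps out of the nucleus, stood at 1.60 there, against -0.16, -0.15 and -0.07 on CSA replicate 2, vehicle replicate 1 and vehicle replicate 2. Irs2, an adaptor of the insulin receptor, stood at 1.11 there, against -0.30, 0.04 and 0.12 in the same order.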
